A study of Mus musculus with 10 samples.

Results

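The Toll-like receptors and their partners were followed here as 10 genes chosen by name: the receptors Tlr2, Tlr3, Tlr4, Tlr7 and Tlr9, the co-receptor Cd14, the adaptor Myd88, the receptor-like protein Cd180 with its partner Ly86, and the chaperone Unc93b1. They are 10 of the 53700 gene identifiers in the deposited counts, each found by its Ensembl identifier. A total of 19268 genes had more than 10 reads over all libraries and were tested. Of the 10 genes, 9 were among them and 1, Tlr9, was not.

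RNA from the cortex of 10 female mice aged 4 months was compared, 5 libraries labelled 5XFAD and 5 labelled 5XFAD;Neu cKO, the question being how loss of Idol from neurons alters the brain of an amyloid mouse. All 10 mice carried the 5XFAD transgenes, human genes with familial Alzheimer's disease mutations expressed from the neuronal Thy1 promoter. In 5XFAD;Neu cKO mice, Cre driven by Camk2a, a promoter of excitatory forebrain neurons, removed the floxed Idol gene (symbol Mylip), a ubiquitin ligase that lowers lipoprotein receptors; the labels give the other group as Camk2a-cre WT. No mouse without the 5XFAD transgenes was among the samples, and the cells outside the Camk2a lineage kept their Idol. The labels give no litter and no batch that differs among the libraries. A p-value here weighs a difference between the groups against the spread between these samples.

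Toll-like receptors sense microbial molecules and products of damaged cells. TLR2 and TLR4 sit at the cell surface, where CD14 hands ligands to them, while TLR3, TLR7 and TLR9 bind nucleic acids in endosomes, to which UNC93B1 escorts them. CD180 (RP105) resembles TLR4 but lacks the signalling domain, and needs LY86 (MD-1) to reach the surface. MYD88 carries the signal of most of these receptors, TLR3 being the exception, to NF-kappaB and inflammatory genes. In the brain microglia are the main users of this system, and TLR2, TLR4 and CD14 have been linked to the sensing of amyloid.

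The 250 bases before the annotated start of the canonical transcript were read for each gene from GRCm39. The windows of 3 genes are printed as context for the counts below, none of which rests on them: Ly86 and Cd180, whose proteins form a complex, hold none of the motifs searched, and Tlr4, the receptor with the fewest reads among the tested members, holds 1. They run 5′ to 3′ along the strand of the gene, and capitals mark GAGGAA or its reverse complement, the core bound by PU.1, a transcription factor of myeloid cells.
Ly86, chr13:37528934-37529183, plus strand: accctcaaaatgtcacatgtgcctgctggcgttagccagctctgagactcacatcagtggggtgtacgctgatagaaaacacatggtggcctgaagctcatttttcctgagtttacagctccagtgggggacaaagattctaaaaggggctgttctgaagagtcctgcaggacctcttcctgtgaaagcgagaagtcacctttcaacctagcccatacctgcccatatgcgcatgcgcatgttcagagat
Cd180, chr13:102829791-102830040, plus strand: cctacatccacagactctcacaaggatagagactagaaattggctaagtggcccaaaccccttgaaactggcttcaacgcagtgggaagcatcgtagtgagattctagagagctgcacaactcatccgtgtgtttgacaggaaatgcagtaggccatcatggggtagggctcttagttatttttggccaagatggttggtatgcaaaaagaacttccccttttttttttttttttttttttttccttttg
Tlr4, chr4:66745533-66745782, plus strand: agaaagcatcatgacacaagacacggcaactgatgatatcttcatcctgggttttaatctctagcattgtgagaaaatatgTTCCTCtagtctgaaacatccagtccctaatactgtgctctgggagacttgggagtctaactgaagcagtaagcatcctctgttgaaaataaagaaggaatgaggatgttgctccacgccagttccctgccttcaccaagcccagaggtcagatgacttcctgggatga

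A match to GAGGAA on either strand lay in the windows of 3 of the 10 genes, Tlr2, Tlr4 and Tlr9, and in 22.9% of the 21770 windows of protein-coding genes. These are also the 3 genes with the fewest reads. In Tlr4 the match covered bases 169 to 164 before the start, and in Tlr2 bases 208 to 203. An AP-1 site, TGACTCA, was found in Tlr9 alone of the 10 and in 4.02% of all windows. A match to the NF-kappaB consensus was found in Tlr2 and Tlr3, against 7.62% of all windows. The core of the interferon response element, searched by its consensus, was in no window of the 10 and in 3.32% of all, and TATAAA was in that of Tlr7 and in 11.9% of all. All motifs were searched on both strands, and a match is a description of the letters only.

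The libraries held 4320504 to 7466192 reads on genes in the 5XFAD group and 5148499 to 7246659 in the 5XFAD;Neu cKO group. By these totals 1 read was worth 0.134 to 0.231 CPM, the count scaled to a common library size. The levels below use library sizes also adjusted by TMM normalization, so a read is worth slightly more or less in them. Limits given for a count of 0 use the unadjusted totals. QuantSeq reads 1 fragment at the 3′ end of each transcript, so a CPM is not inflated by transcript length and was compared between genes. Mylip, the targeted gene, had 45 to 108 reads where the label was 5XFAD and 50 to 148 where it was 5XFAD;Neu cKO, 11.2 ± 2.27 and 14.8 ± 4.90 CPM (SD, n = 5 each), with an adjusted p of 0.777 in edgeR's quasi-likelihood test. Reads from the 3′ end need not lie in the removed part, and other cells keep the gene, so these counts do not check the deletion. The paper reports lower Idol mRNA by qPCR in the cortex of mice with the neuronal deletion. The groups are named by their labels throughout. Neuronal, astrocytic and oligodendrocyte markers were abundant in all 10 libraries, with summed levels of at least 6120, 4038 and 1714 CPM.

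Unc93b1 and Tlr3 had the highest levels of the 10 genes, at means of 11.2 and 9.37 CPM over all libraries. Ly86 followed at 5.26 CPM, then Myd88 at 3.02, Cd180 at 2.7, Cd14 at 2.01, Tlr7 at 1.74, Tlr2 at 1.21 and Tlr4 at 0.19 CPM. Within groups the order of means differed in places: in 5XFAD;Neu cKO Tlr3 (8.91 CPM) lay above Unc93b1 (8.16 CPM) and Tlr7 (1.67 CPM) above Cd14 (1.59 CPM), and in 5XFAD Cd180 (3.19 CPM) lay above Myd88 (2.95 CPM). The ranges over libraries overlapped for every pair of neighbours in this order. Ly86 lay above Myd88, and Tlr2 above Tlr4, in all 10 libraries, Tlr3 lay above Ly86 in 8, and the remaining neighbours kept their order in 5 or 6. The 9 genes that were tested summed to between 32.1 and 48.6 CPM in the 5XFAD group (median 43.0) and between 24.1 and 39.8 CPM in the 5XFAD;Neu cKO group (median 32.8), and the groups overlapped.

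None of the 9 tested genes passed an adjusted p of 0.05 in edgeR's quasi-likelihood test, in which 0.218% of all tested genes passed in either direction. At an unadjusted p under 0.05, 1 of the 9, Unc93b1, was lower in 5XFAD;Neu cKO, against 4.01% of all genes. In 6 of the 9 the log2 fold change lay below 0, with a median of -0.14, against 50.1% and a median of -0.00056 over all genes. In none did every 5XFAD;Neu cKO library lie below every 5XFAD library, a pattern shown by 0.721% of all genes. Tlr4 entered the test mainly through its 5XFAD;Neu cKO reads, so the 9 are not a neutral sample of the 10.

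**Figure D1:**
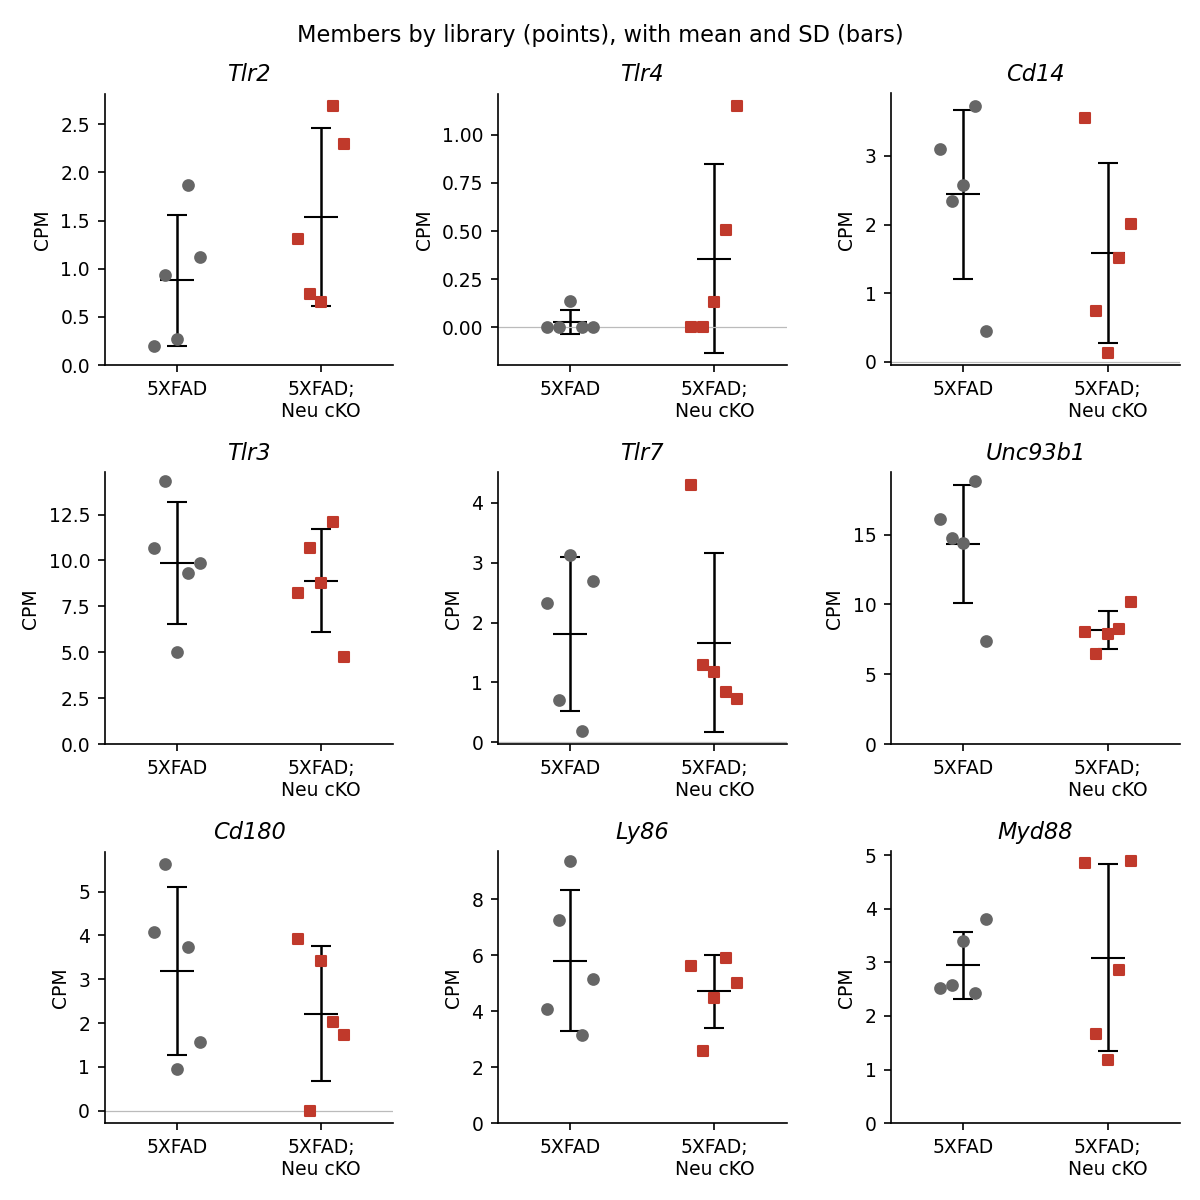
Level of each tested gene in CPM (vertical axes, each with its own scale) in the 5 5XFAD libraries (grey circles) and the 5 5XFAD;Neu cKO libraries (red squares). The long bars are means and the error bars SDs (n = 5). The groups overlap in every panel, and in that of Unc93b1 only 1 5XFAD library, at 7.41 CPM, reaches the range of the 5XFAD;Neu cKO group.

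Tlr2 (GRCm39, chr3:83743576-83749074, minus strand), the surface receptor for lipoproteins, had too few reads to compare, with a median below 10 reads in both groups. The reads of 5XFAD replicates 1 to 5 numbered 1, 4, 2, 10 and 5, and those of the same replicates of 5XFAD;Neu cKO numbered 7, 4, 5, 16 and 16. Replicates 4 and 5 of the 5XFAD;Neu cKO group held 32 of that group's 48 reads, and the other 3 of its libraries lay within the range of the 5XFAD group. Levels were 0.88 ± 0.68 CPM and 1.54 ± 0.92 CPM (SD, n = 5). The log2 fold change was 0.81, with an SE of 0.86 and a 95% interval from -0.91 to 2.53 (adjusted p = 0.909, edgeR).

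Tlr4 (chr4:66745783-66849936, plus strand), the receptor for lipopolysaccharide, was close to the limit of detection. The 5XFAD libraries held 1 read in all, in replicate 3, and the 5XFAD;Neu cKO libraries 12, of which 8 were in replicate 5, 3 in replicate 4 and 1 in replicate 3. The other 6 libraries had no read. Scaled by the total reads of each group, the ratio of 5XFAD;Neu cKO to 5XFAD reads was 10.8, with an exact 95% interval from 1.60 to 464. That interval covers counting error only and treats the 5 libraries of a group as 1 pool. It also ignores that Tlr4 passed the filter mainly through its 5XFAD;Neu cKO reads, so it is no support for a higher level. Over the libraries the adjusted p was 0.748 in edgeR, and the exact two-sided permutation test of log2 CPM gave p = 0.286 (n = 5 per group), so no difference was detectable at this depth.

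Cd14, the co-receptor that binds lipopolysaccharide for TLR4, was at 3.10, 2.35, 2.58, 3.73 and 0.45 CPM in 5XFAD replicates 1 to 5. Replicates 1 to 5 of the 5XFAD;Neu cKO group were at 3.55, 0.74, 0.13, 1.51 and 2.01 CPM. These levels rest on 16, 10, 19, 20 and 2 reads in 5XFAD and on 19, 4, 1, 9 and 14 in 5XFAD;Neu cKO. The median was 16 reads in 5XFAD and 9 in 5XFAD;Neu cKO, where it lay below 10. Replicate 5 of the 5XFAD group stood below the other 4, and replicate 1 of the 5XFAD;Neu cKO group stood among the highest values of both groups. For Cd14 the log2 fold change was -0.64 with an SE of 0.67 (95% interval -1.99 to 0.72, adjusted p = 0.909, edgeR). The interval runs from 0.25 to 1.64 times the level of the 5XFAD group.

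Tlr3 (chr8:45848702-45864117, minus strand), the endosomal receptor for double-stranded RNA, was among the best counted, with 33 to 72 reads in every library. Its level was 10.7, 14.3, 5.03, 9.32 and 9.87 CPM in 5XFAD replicates 1 to 5. The 5XFAD;Neu cKO libraries, in the same order, were at 8.23, 10.7, 8.80, 12.1 and 4.74 CPM. The lowest library of each group lay near 5 CPM and the groups covered nearly the same range. The log2 fold change was -0.13 with an SE of 0.29, and its 95% interval reached from -0.72 to 0.46 (adjusted p = 0.973, edgeR; exact two-sided permutation p = 0.675).

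Tlr7 (chrX:166086758-166113605, minus strand), the endosomal receptor for single-stranded RNA, gave 12, 3, 23, 1 and 12 reads in replicates 1 to 5 of the 5XFAD group, against 23, 7, 9, 5 and 5 for the 5XFAD;Neu cKO group. The 5XFAD libraries spread from 0.19 to 3.12 CPM, and in the other group replicate 1, at 4.30 CPM, stood apart from libraries at 0.72 to 1.29 CPM. The log2 fold change was -0.14 with an SE of 0.72 (95% interval -1.58 to 1.30, adjusted p = 0.990, edgeR). Without replicate 1 of the 5XFAD;Neu cKO group it was -0.84, with an adjusted p of 0.888.

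Tlr9 (chr9:106099797-106104082, plus strand), the endosomal receptor for unmethylated CpG DNA, had no read in any of the 10 libraries. A count of 0 allows up to 3 reads, which corresponds to 0.402 to 0.694 CPM in a single library and to 0.052 CPM over the 57717777 reads of all libraries together, for counting error only. The gene was therefore not tested.

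Unc93b1 (chr19:3985167-3999341, plus strand), the chaperone that carries the endosomal receptors, had the largest counts and the smallest p of the members. Its level was 16.1, 14.8, 14.4, 18.8 and 7.41 CPM in 5XFAD replicates 1 to 5. Replicates 1 to 5 of the 5XFAD;Neu cKO group were at 8.04, 6.44, 7.88, 8.24 and 10.2 CPM. All 5 of the 5XFAD;Neu cKO libraries lay below the 5XFAD mean, and 4 of the 5XFAD libraries above every 5XFAD;Neu cKO library, while replicate 5 of the 5XFAD group lay inside the other group's range. Mean levels were 14.3 ± 4.23 and 8.16 ± 1.34 CPM (SD, n = 5). The log2 fold change was -0.81, with an SE of 0.26 and a 95% interval from -1.33 to -0.29.

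The lower level of Unc93b1 did not pass the correction over all genes (adjusted p = 0.287 in edgeR's quasi-likelihood test). Before adjustment its p in that test was 0.00299, and it ranked 201 of 19268 genes. The exact two-sided permutation test of its log2 CPM gave p = 0.0397, unadjusted over the 9 members tested that way, where the smallest p that 5 against 5 libraries allow is 0.00794. Without replicate 5 of the 5XFAD group the log2 fold change was -0.97 with an adjusted p of 0.0998, and leaving out any single library kept it between -0.97 and -0.69. The permutation p rose to between 0.0556 and 0.0714 in 8 of the 10 fits that left out 1 library.

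Cd180 (chr13:102830041-102876137, plus strand), the receptor-like inhibitor of TLR4 signalling, was at 4.07, 5.63, 0.95, 3.73 and 1.57 CPM in 5XFAD replicates 1 to 5. The 5XFAD;Neu cKO libraries, in the same order, were at 3.93, 0, 3.41, 2.02 and 1.72 CPM. Replicate 2 of the 5XFAD;Neu cKO group had no read, which allows up to 0.583 CPM by its unadjusted total. The other 4 libraries of that group lay within the range of the 5XFAD group. The log2 fold change was -0.50 with an SE of 0.60 (95% interval -1.71 to 0.71, adjusted p = 0.932, edgeR). The span given for Cd180 overlaps that of Mast4 on the opposite strand, which was counted 4048 times over the 10 libraries. The canonical transcripts of these genes share 0 exonic bases, and their other transcripts were not compared.

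Ly86 (chr13:37529184-37603012, plus strand), the partner that CD180 needs at the surface, was counted 14 to 69 times in every library. It was at 4.07, 7.27, 9.37, 3.17 and 5.16 CPM in 5XFAD replicates 1 to 5. Replicates 1 to 5 of the 5XFAD;Neu cKO group were at 5.61, 2.58, 4.46, 5.89 and 5.03 CPM. The 2 highest values were 5XFAD libraries, and the lowest was replicate 2 of the 5XFAD;Neu cKO group, the library in which Cd180 had no read. For Ly86 the log2 fold change was -0.31 with an SE of 0.38 (95% interval -1.07 to 0.45, adjusted p = 0.935, edgeR).

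Myd88 (chr9:119165000-119170486, minus strand), the adaptor shared by the receptors other than TLR3, was at 2.52, 2.58, 3.40, 2.42 and 3.82 CPM in 5XFAD replicates 1 to 5. The 5XFAD;Neu cKO libraries, in the same order, were at 4.86, 1.66, 1.18, 2.86 and 4.88 CPM. The 5XFAD;Neu cKO libraries held both the 2 highest and the 2 lowest values. For Myd88 the log2 fold change was 0.06 with an SE of 0.51 (95% interval -0.96 to 1.08, adjusted p = 0.992, edgeR). The start of Myd88 shares 172 exonic bases with Acaa1a on the opposite strand, 5315 bases from the 3′ end of Myd88, and the strand setting of the counting is not given in the sources used here. Acaa1a was itself counted 775 times over the 10 libraries.

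Reads of these libraries come from near the end of a transcript. In the last 40 bases of the annotated canonical transcript, AATAAA or ATTAAA, the usual poly(A) signals, were present in 6 of the 10 genes and in 67.5% of all protein-coding transcripts. They were found in Tlr3, Tlr4, Cd14, Myd88, Ly86 and Unc93b1. They were not in that window of Tlr2, Tlr7, Tlr9 or Cd180.

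**Figure D2:**
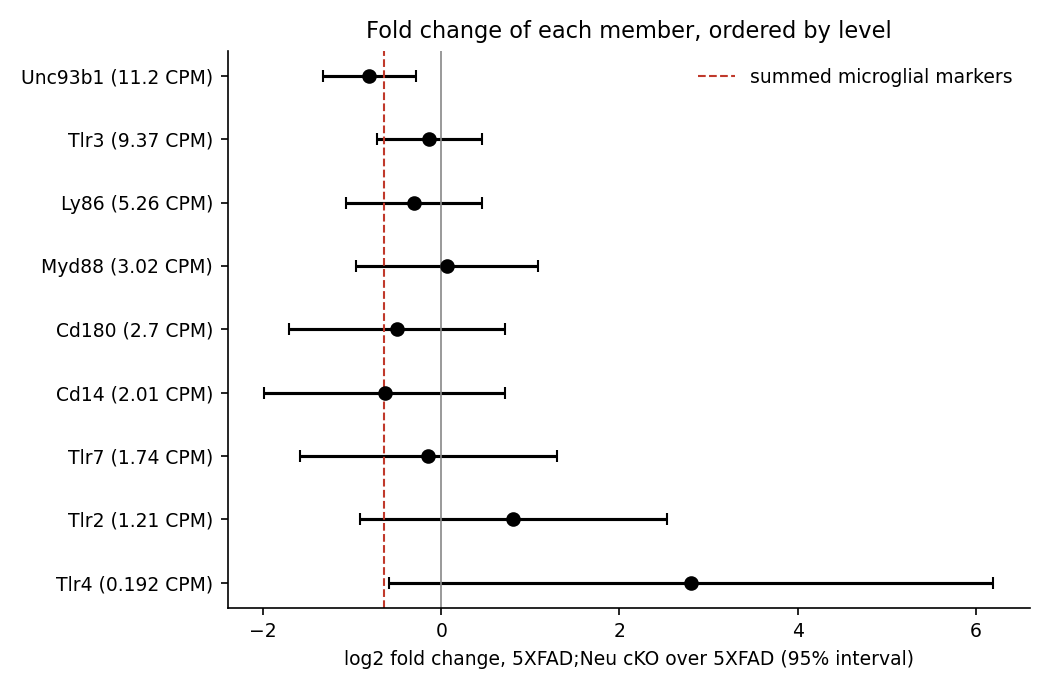
Log2 fold change of 5XFAD;Neu cKO over 5XFAD (horizontal axis) for the 9 tested genes, ordered by mean level, with 95% intervals from edgeR. The dashed red line is the log2 difference of the summed microglial markers, at -0.64, and the intervals of 7 genes hold both this value and 0.

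The levels of these genes were set beside those of microglia. All 19 tested microglial markers had a log2 fold change below 0, with a median of -0.59, and 7 of the 19 passed the adjusted threshold as lower, against 0.161% of all tested genes. Ctss, a lysosomal protease of microglia, fell from 154 ± 27.2 to 81.7 ± 13.6 CPM (adjusted p = 5.24e-07, edgeR), and Csf1r, the receptor microglia need to survive, from 60.3 ± 10.2 to 38.5 ± 2.43 CPM (adjusted p = 0.00615). The 19 markers summed to 574 to 839 CPM across the 5XFAD group and 393 to 491 CPM across the 5XFAD;Neu cKO group, without overlap. The log2 difference was -0.64 (exact two-sided permutation p = 0.00794, the smallest possible, n = 5 per group). The list was written with earlier results of these data known, and the paper reports Ctss, Csf1r and Tyrobp as lower in these libraries. This p is therefore no independent support, and -0.64 serves below only as a size for comparison. Gfap, the filament protein of reactive astrocytes, also fell from 44.5 ± 10.4 to 24.1 ± 5.71 CPM (adjusted p = 0.00202, edgeR), the 1 of 8 astrocyte genes past the threshold. All 6 oligodendrocyte genes had a log2 fold change below 0, with a median of -0.28 and 4 at an unadjusted p under 0.05, and none passed the adjusted threshold. In cortex as a whole, fewer cells of a type and less RNA per cell cannot be told apart. The other markers named by rule for microglia that passed were Tyrobp, C1qb, C1qc, Laptm5 and Cx3cr1, with log2 fold changes from -1.21 to -0.51.

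The 95% intervals of Tlr2, Tlr3, Tlr7, Cd14, Myd88, Ly86 and Cd180, 7 of the 9 tested members, held both 0 and the microglial difference of -0.64, so for these genes the libraries do not tell a difference of that size from none. The interval of Unc93b1 held the microglial difference and not 0. The interval of Tlr4, from -0.59 to 6.20, held 0 and not the microglial difference. Nothing is drawn from this, since Tlr4 passed the filter mainly through the reads of 1 group.

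The 5 members with a median of at least 10 reads in both groups were also divided by the summed microglial markers of the same library. That sum differed by -0.64 on the log2 scale, so a member at equal CPM in both groups rises on this scale by construction. Unc93b1 was 2.01 ± 0.59% of the markers in 5XFAD and 1.83 ± 0.47% in 5XFAD;Neu cKO (SD, n = 5), a log2 difference of -0.12 (exact two-sided permutation p = 0.603). With homeostatic microglial markers in place of the 19 the difference was -0.28 (exact permutation p = 0.270), and leaving out 1 library gave values between -0.30, when 5XFAD replicate 5 was omitted, and -0.0088, when replicate 4 of that group was omitted. On this scale both groups spanned nearly the same range, from 1.18 to 2.64% and from 1.31 to 2.59%. Ly86 was 0.857 ± 0.478% and 1.05 ± 0.320%, a log2 difference of 0.39 (exact permutation p = 0.357). Cd180, computed with a prior count of 2 because of its library at 0, differed by -0.02 (exact permutation p = 0.992).

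Tlr3 was 1.36 ± 0.34% of the microglial markers in 5XFAD and 1.94 ± 0.53% in 5XFAD;Neu cKO, a log2 difference of 0.50 (exact two-sided permutation p = 0.0873, n = 5 per group). Of the 5XFAD;Neu cKO libraries, 3 lay above every 5XFAD library on this scale. Replicates 1 and 5 of that group, at 1.75% and 1.21%, lay within the range of the 5XFAD libraries. Without its replicate 5 the difference was 0.66 with an exact permutation p of 0.0238. Without any other single library it was 0.36 to 0.61 with exact permutation p from 0.0556 to 0.183. With homeostatic microglial markers it was 0.35 (exact permutation p = 0.270), and with the mean log2 of the markers 0.46 (exact permutation p = 0.127). Myd88 was 0.432 ± 0.155% and 0.699 ± 0.430%, a log2 difference of 0.52 (exact permutation p = 0.357), with 3 of the 5XFAD;Neu cKO libraries above every 5XFAD library. No p among these 5 comparisons was below 0.05 with all libraries, and none is adjusted over them. In CPM the log2 fold changes of Tlr3 and Myd88 were -0.13 and 0.06. Their higher ratios follow from the lower marker sum and are no sign of a higher level of either gene.

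**Figure D3:**
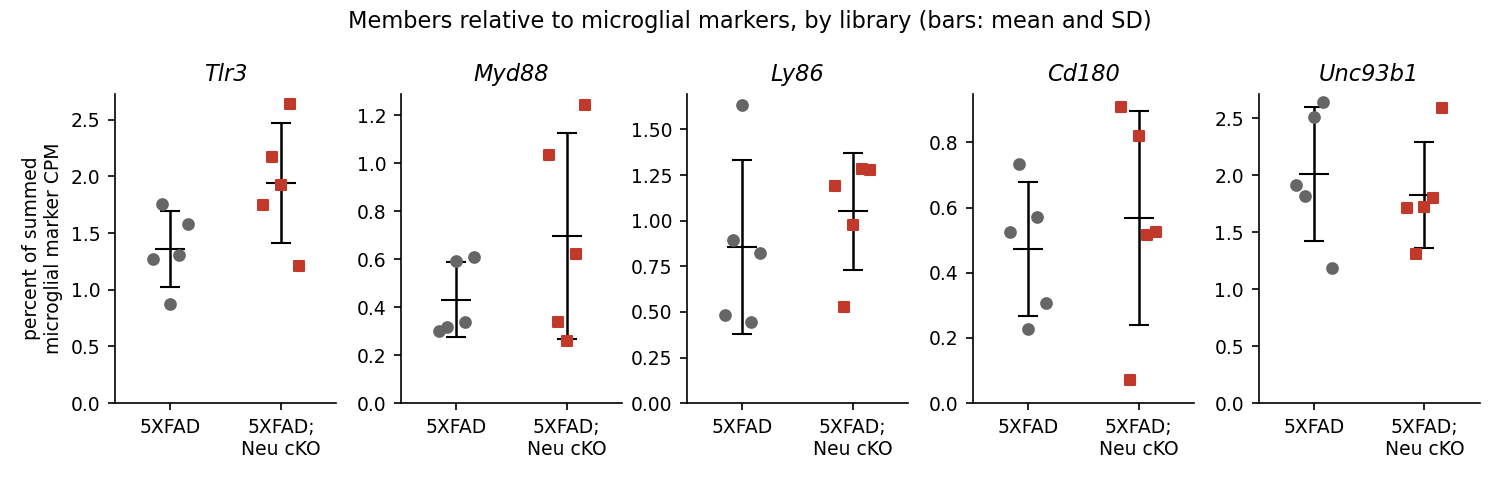
Level of 5 members as a percentage of the summed CPM of 19 microglial markers in the same library (vertical axes from 0), for 5XFAD (grey circles) and 5XFAD;Neu cKO (red squares) libraries. Bars show mean and SD (n = 5). The groups overlap in every panel, and 3 red points of Tlr3 and of Myd88 lie above all grey points. The summed markers were themselves lower in 5XFAD;Neu cKO.

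Markers of other blood and immune cells were read in the same libraries. Of 8 neutrophil markers 2 were tested, and these summed to at most 2.04 CPM in any library, Ly6g being at 0 throughout. Monocyte markers left 1 tested gene, Ccr2, at up to 1.85 CPM. Of the B cell list, Ighm, the heavy chain of IgM, was at 8.29 to 18.1 CPM in every library, while Cd79a had no read. Of the T cell list, Cd4 and Trac were tested and summed to 2.19 to 7.17 CPM, while Cd3d and Cd3g had no read. Border macrophage markers summed to 7.74 to 16.6 CPM in 5XFAD and 11.2 to 19.0 CPM in 5XFAD;Neu cKO libraries, with 3 of 8 lower and none past the threshold. All 5 erythrocyte genes were higher in 5XFAD;Neu cKO, 2 of them past the threshold (Hbb-bs and Hba-a1), with sums of 6.34 to 51.4 and 46.9 to 211 CPM. The part of these cells in the levels of the members was not tested.

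The rest of the pathway was followed through 107 genes in 7 lists, and 89 of these genes were tested. The lists were written from general knowledge, but with earlier results of these data known. None passed the adjusted threshold in edgeR, 49 of the 89 (55.1%, against 50.1% of all genes) had a log2 fold change below 0, and the median was -0.06. At an unadjusted p under 0.05, 3 were lower and 3 higher, against 773 and 759 of all 19268 genes.

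Among the other receptors, Tlr8 had no read and Tlr6 and Tlr11 too few to be tested, while 2 of the 4 tested genes were lower. Tlr13, a mouse receptor for bacterial ribosomal RNA, was at 2.35 ± 1.56 CPM in 5XFAD and 1.35 ± 0.79 CPM in 5XFAD;Neu cKO (adjusted p = 0.875, edgeR). Tlr1, which pairs with TLR2, had 0 to 8 and 0 to 6 reads, and Tlr12 had 0 to 5 and 2 to 10 reads.

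Of the other partners and chaperones, 11 of 12 tested genes had a log2 fold change below 0, with a median of -0.29 against -0.00056 over all genes, and none passed the adjusted threshold. Hsp90b1, the chaperone gp96 that folds most Toll-like receptors, was at 442 ± 59.3 and 410 ± 43.1 CPM (log2 fold change -0.11, adjusted p = 0.862, edgeR). Cnpy3, its co-chaperone for the receptors, was at 50.7 ± 8.02 and 39.7 ± 5.01 CPM (log2 fold change -0.36, SE 0.14, adjusted p = 0.445). Tmed7, which helps move TLR4 to the surface, was the member of this list on the other side of 0, at 0.38 (adjusted p = 0.692).

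The adaptors and kinases below the receptors had 9 of 22 tested genes below 0 and a median of 0.09, and the transcription factors 6 of 15 and 0.06. Traf6, the ubiquitin ligase that acts after MYD88, was at 4.37 ± 1.48 and 7.28 ± 2.18 CPM (log2 fold change 0.72, adjusted p = 0.628, edgeR). Peli1 and Tab2, further parts of the same cascade, were at 81.0 ± 8.90 and 78.7 ± 8.73 CPM in 5XFAD and 87.4 ± 12.6 and 83.2 ± 6.27 CPM in 5XFAD;Neu cKO, and Chuk, a kinase of the NF-kappaB inhibitor, had an adjusted p of 0.699. Irak1, the kinase that MYD88 recruits, was at 33.8 ± 6.49 and 30.3 ± 5.66 CPM (adjusted p = 0.899). Fos, a subunit of AP-1 that neuronal activity also induces, had the smallest adjusted p of the pathway, 0.254, with 16.4 ± 6.84 and 26.6 ± 4.39 CPM. Nfkbia, the NF-kappaB inhibitor that NF-kappaB induces, was at 67.7 ± 14.7 and 70.9 ± 12.4 CPM (adjusted p = 0.966), and Jun, the partner of FOS, at 40.2 ± 8.74 and 47.1 ± 11.1 CPM (adjusted p = 0.798). Irf5, a factor used by MYD88 in myeloid cells, had 7 to 35 reads in 5XFAD and 2 to 12 in 5XFAD;Neu cKO libraries (log2 fold change -1.33, SE 0.66, adjusted p = 0.627).

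Inhibitors of the pathway had 4 of 13 tested genes below 0 and a median of 0.19. Tollip, which restrains signalling by the receptors, was at 32.7 ± 7.0 and 39.5 ± 9.24 CPM (adjusted p = 0.739, edgeR), and Irak3, the inhibitory kinase of macrophages, had 0 to 7 and 5 to 16 reads (adjusted p = 0.813). The deubiquitinase Cyld was at 122 ± 9.79 and 127 ± 12.1 CPM, and Tank at 15.4 ± 0.79 and 18.0 ± 2.54 CPM, with adjusted p of 0.95 and 0.882. Among genes that the pathway induces, Tnf, Il6, Il12b, Il10 and Ifnb1 had no read in any library. Of the 11 tested, 8 were below 0 with a median of -0.71, most of them at few reads, and none passed. Il1a, an inflammatory cytokine, had 0 to 6 reads in 5XFAD and 0 to 1 in 5XFAD;Neu cKO libraries (adjusted p = 0.528). Ptgs2, the inducible cyclooxygenase that cortical neurons also make, was at 5.53 ± 2.18 and 9.66 ± 4.84 CPM (adjusted p = 0.540). Nfkbiz, a co-regulator of NF-kappaB targets, had 17 to 47 and 3 to 32 reads, and Icam1, an adhesion molecule, 0 to 17 and 4 to 26 reads, with adjusted p of 0.800 and 0.873 in edgeR.

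Proteins that have been described as ligands released by the body's own cells had 9 of 12 tested genes below 0 with a median of -0.10 and a range from -0.22 to 0.17. Hmgb1, a nuclear protein released by dying cells, was at 40.1 ± 9.0 and 34.3 ± 3.98 CPM (adjusted p = 0.807, edgeR), and Hspd1, a mitochondrial chaperone, at 58.7 ± 6.33 and 53.3 ± 6.36 CPM (adjusted p = 0.879). The chaperone gene Hspa8, the most abundant of the list, differed by -0.06 on the log2 scale (adjusted p of 0.982).

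**Figure D4:**
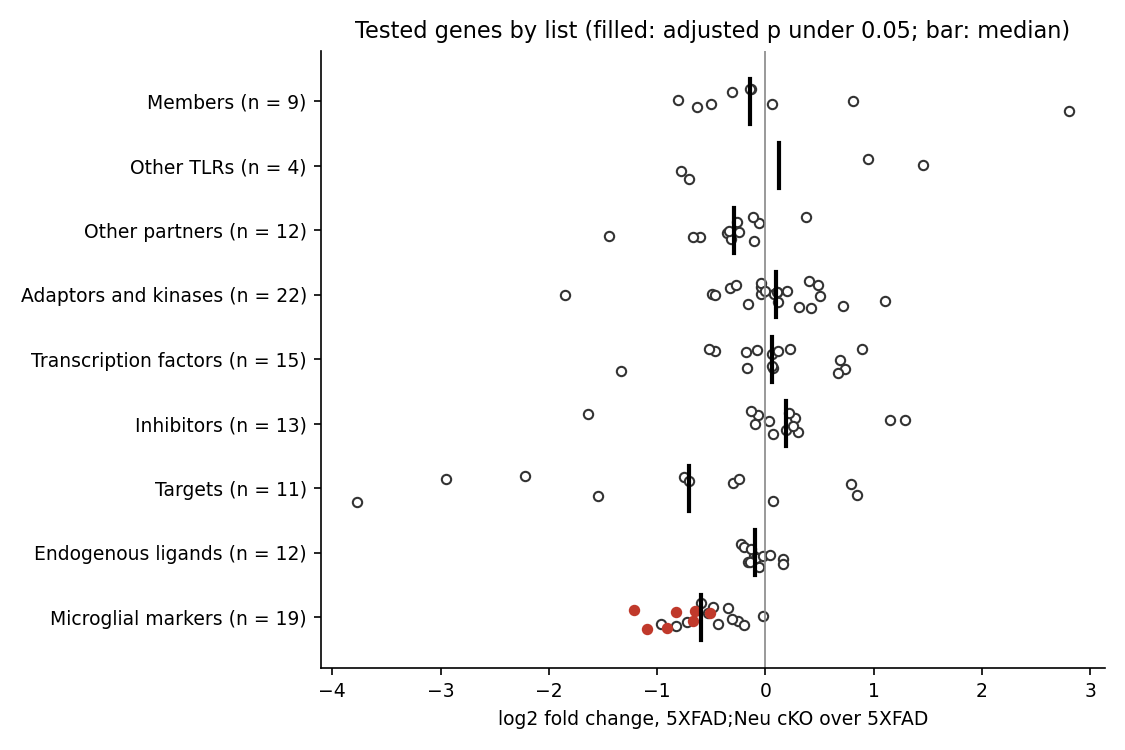
Log2 fold change of 5XFAD;Neu cKO over 5XFAD (horizontal axis) for each tested gene of the members, of 7 lists of the Toll-like receptor pathway and of microglial markers (rows). Filled red points have an edgeR adjusted p under 0.05 and black bars are medians; filled points appear in the row of microglial markers and in no other row, and 7 of its 19 points are filled.

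Among the 5 genes whose log2 CPM followed that of Unc93b1 most closely over the 10 libraries, of 11062 with a mean of at least 5 CPM, were Pigk (r = 0.94), Cpt1a (0.92), Uqcrh (0.92) and Ndufa3 (0.91). With the group means taken out, r was 0.82 to 0.88 for these 4 genes. For Tlr3 the 5 genes were Cd320, Chmp1a, Ksr1, Eif3b and Sepsecs, with r from 0.89 to 0.92, and for Ly86 Cbx6, Ufsp2, Mfsd14a, Uxs1 and Spag7, with r from 0.89 to 0.92. These are the extremes of many correlations over 10 libraries that share their depth and scaling, and are given as a description.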

How the data were processed

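Cortex of 10 mice was measured by QuantSeq 3′ sequencing. After trimming with bbduk, the authors used STAR 2.7.3a for alignment to GRCm39 (Ensembl annotation) and counted reads per gene with htseq-count (HTSeq 0.9.1 in the submitters' processing notes, a later version in the paper); the deposited values are whole-number counts per gene with no normalization. The paper's methods state the kit maker's settings, and the strand setting of the counting is not given in the sources used here.

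The members and lists were chosen with earlier results of these data known. Names and places were taken from GENCODE for GRCm39, in a release later than the one used for counting, and 52610 of 53700 identifiers had a symbol. Reads on no gene, 31.3 to 39.9% of those kept, entered neither library sizes nor tests. Genes with a total above 10 were tested with edgeR 4.0.16 under R 4.3.3 (TMM normalization, glmQLFit and glmQLFTest, group as the only term), with Benjamini-Hochberg adjustment over 19268 genes. Too few counts means a median under 10 in both groups. Single members were compared by exact two-sided permutation tests of log2 CPM (prior count 2). The scripts were tested on simulated data. Libraries of the same group all differed by more than counting noise (chi-square per degree of freedom at least 5.70 in 20 pairs).

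Besides the members, the genes named are Mylip, by rule, in each pathway list the genes past the threshold, otherwise the 3 with the highest level and the 2 with the smallest p, and for the 3 members with the highest level the 5 genes most correlated with each. The rule also took the highest and lowest gene of each cell type list, given here only where a result of the members rests on it, and cell type genes at 0 were named after their values were seen. Some genes the rule takes, and some sequences, are not reported here. Promoter and transcript-end windows came from the GRCm39 genome with the GENCODE canonical transcripts. Alternatives were DESeq2 1.42.0 with and without its independent filtering (the latter added after seeing the data), its size factors, other filters, a robust fit, mitochondrial genes left out, a replicate block and each library left out.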

Additional observations from a re-analysis of the deposited data

Results flagged for a closer look

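Groups of 5 libraries were searched for a highest or lowest library whose gap to the next exceeded 0.71 of the group's range. This is Dixon's 95% critical value, which assumes roughly normal data. Counts near 0 are not such data, so no chance rate is set beside the 2 of 19 groups found. Tlr4 in 5XFAD was at 0.136 CPM in replicate 3 and at 0 in the other 4 libraries, which is a single read. A group with reads in only 1 library is flagged by construction. Tlr7 in 5XFAD;Neu cKO was at 4.30 CPM in replicate 1, on 23 reads, and at 0.72 to 1.29 CPM in the other 4.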

How the results depend on the processing

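No member passed the adjusted threshold under any alternative that gave it an adjusted p. DESeq2 gave none of the 9 members an adjusted p, because its filter removed them for their low counts; without that filter, added after seeing the data, it called 0 of 9 (Unc93b1 0.269). The count of all genes called was 42, against 73 with DESeq2, 40 without its filter, 103 with no filter on low counts, 112 with a replicate block and 26 to 72 leaving out each library (26 without 5XFAD replicate 2, 72 without 5XFAD;Neu cKO replicate 1, and 27 without its replicate 4 or 5); the cause was not tested. Same-numbered libraries did not deviate together (correlations -0.054 to 0.021), which does not exclude a pairing by litter, since the labels give none. The replicate block called 1 pathway gene, Fos, where the model without it called 0, and turned Myd88 to -0.089.

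Leaving out each library in turn, the log2 fold change ran from -0.31 to 0.037 for Tlr3, from -0.84 to 0.16 for Tlr7 and from -0.17 to 0.28 for Myd88. The difference of log2 CPM ran from -0.34 to 0.071 for Tlr3, from -0.45 to 0.23 for Tlr7 and from -0.28 to 0.16 for Myd88. For Tlr7 it was 0.060 with a prior count of 0.5. Cd180 relative to microglial markers ran from -0.29 to 0.63, the highest without 5XFAD;Neu cKO replicate 2, its library at 0. The other 6 members kept their direction wherever they could be fitted, with sizes that depended on single libraries: -0.97 to -0.69 for Unc93b1, -0.46 to -0.052 for Ly86, -0.79 to -0.19 for Cd180, -1.15 to -0.33 for Cd14, 0.52 to 1.30 for Tlr2 and 2.61 to 4.11 for Tlr4. Tlr4 has no value without 5XFAD;Neu cKO replicate 4 or 5, where it fell below the filter. Under edgeR's own filter 6 members were tested, and Tlr2, Tlr4 and Tlr7 have no value. The 95% intervals of the 9 members were 1.04 to 6.79 wide on the log2 scale, from read counting and the spread between mice together.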
